A study of Mus musculus with 12 samples.

Results

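The amyloid precursor family and the secretases that cut it were followed as 8 genes in mouse hippocampus. They were the precursors App, Aplp1 and Aplp2, the beta-secretase Bace1, the alpha-secretase Adam10, and the gamma-secretase subunits Psen2, Psenen and Ncstn. The members were taken by gene name from a deposited table of 23352 gene entries, in which all 8 had 1 row each. The 12 poly-A RNA libraries came from N40K transgenic mice and non-transgenic wild-type (WT) littermates at 3 and at 12 months of age, with 3 libraries in each of the 4 groups. All mice were of the C57BL/6J strain. N40K is a truncated form of U1-70K, a protein of the splicing machinery that the gene SNRNP70 encodes. A modified CaMKIIa promoter drove it in neurons, and the transgenic mice belonged to the single line Tg396. The labels numbered the libraries within each group but did not say that each came from its own mouse, so p-values measure the spread between libraries.

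App is a membrane protein of neurons and other cells. Cleavage by an alpha-secretase releases a soluble ectodomain and precludes amyloid-beta, whereas cleavage by beta-secretase and then by gamma-secretase yields amyloid-beta, the peptide of the plaques of Alzheimer's disease. Aplp1 and Aplp2 are paralogs that share the secretases but lack the amyloid-beta stretch. Gamma-secretase is a complex of a presenilin, which carries the catalytic site, nicastrin (Ncstn), the presenilin enhancer (Psenen) and an Aph1 protein.

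The stretch of 250 bases before the annotated start of transcription is shown for the 5 members whose level fell in a comparison described here. App and Psenen fell in a genotype comparison, and Aplp1, Psen2, Psenen and Ncstn fell with age. The sequences are those of RefSeq on GRCm38.p6, all on the minus strand and written 5′ to 3′ in the direction of the gene, with capitals marking matches to the motifs below. They are App at chr16:85173708-85173957, Aplp1 at chr7:30445583-30445832, Psen2 at chr1:180256301-180256550 and, for its other start, chr1:180245951-180246200, Psenen at chr7:30563628-30563877 and, for its other start, chr7:30563205-30563454, and Ncstn at chr1:172082750-172082999.
App: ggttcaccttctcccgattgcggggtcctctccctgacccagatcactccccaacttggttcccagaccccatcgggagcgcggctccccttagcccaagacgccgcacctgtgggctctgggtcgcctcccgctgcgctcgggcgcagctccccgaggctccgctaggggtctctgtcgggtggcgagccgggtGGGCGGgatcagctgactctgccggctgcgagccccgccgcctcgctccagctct
Aplp1: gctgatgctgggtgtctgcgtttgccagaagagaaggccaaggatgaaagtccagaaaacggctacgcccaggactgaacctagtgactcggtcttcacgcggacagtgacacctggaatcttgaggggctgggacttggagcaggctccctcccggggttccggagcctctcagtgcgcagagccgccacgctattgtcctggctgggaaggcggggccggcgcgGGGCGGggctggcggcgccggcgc
Psen2 start 1: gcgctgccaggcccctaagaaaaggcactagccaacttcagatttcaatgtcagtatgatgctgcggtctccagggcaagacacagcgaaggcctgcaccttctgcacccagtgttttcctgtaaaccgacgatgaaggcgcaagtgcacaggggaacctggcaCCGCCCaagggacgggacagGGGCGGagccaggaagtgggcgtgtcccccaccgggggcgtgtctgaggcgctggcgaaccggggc
Psen2 start 2: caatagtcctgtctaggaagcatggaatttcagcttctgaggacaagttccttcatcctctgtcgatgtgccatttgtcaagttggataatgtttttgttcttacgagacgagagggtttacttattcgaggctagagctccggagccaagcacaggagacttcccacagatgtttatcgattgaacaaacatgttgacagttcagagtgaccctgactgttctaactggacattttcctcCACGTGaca
Psenen start 1: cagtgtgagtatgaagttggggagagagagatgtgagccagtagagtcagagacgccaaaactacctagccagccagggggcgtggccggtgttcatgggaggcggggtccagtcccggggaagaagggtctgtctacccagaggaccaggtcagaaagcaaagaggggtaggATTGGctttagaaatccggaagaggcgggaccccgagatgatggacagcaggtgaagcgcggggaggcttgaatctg
Psenen start 2: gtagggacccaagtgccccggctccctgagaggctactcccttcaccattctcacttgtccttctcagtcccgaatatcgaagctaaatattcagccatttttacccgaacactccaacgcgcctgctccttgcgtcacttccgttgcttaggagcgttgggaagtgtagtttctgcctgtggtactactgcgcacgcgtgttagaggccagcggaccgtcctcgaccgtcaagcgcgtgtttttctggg
Ncstn: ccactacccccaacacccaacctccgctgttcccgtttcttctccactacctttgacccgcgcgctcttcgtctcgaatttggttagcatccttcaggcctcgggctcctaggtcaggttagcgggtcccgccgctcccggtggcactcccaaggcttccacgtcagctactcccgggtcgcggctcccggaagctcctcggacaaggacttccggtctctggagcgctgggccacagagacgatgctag

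The motifs searched on both strands were the GC box (GGGCGG), the CCAAT box (CCAAT), the E-box (CACGTG), the cyclic AMP response element (TGACGTCA) and the TATA box (TATAAA). No searched motif overlapped another in the windows printed. The App and Aplp1 windows each held 1 GC box, a motif found in 32.7% of all 32851 RefSeq windows of this length. Psen2 start 1 held 2 GC boxes, and Psen2 start 2 held 1 E-box, found in 6.0% of all windows. Psenen start 1 held 1 CCAAT box, read as ATTGG on the printed strand, and 33.8% of all windows held one. Psenen start 2 and Ncstn held no match, which says only that these letters are not in these windows. GC content was 70.8% for App, 66.0% for Aplp1, 63.2% for Ncstn, 62.8% and 44.8% for the Psen2 starts, and 58.4% and 55.6% for the Psenen starts, against a median of 52.4% over all windows. RefSeq windows were matched for 7 of the 8 members.

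Levels are given as FPKM, fragments scaled to transcript length and library size. The lengths behind them are not given in the sources used here. For Bace1 the longest coding part has 1506 bases and the longest transcript 6058. Orders between genes given below rest on these unknown lengths. Averaged over the 12 libraries the order from high to low was Aplp1, App, Aplp2, Psenen, Ncstn, Bace1, Adam10 and Psen2. Aplp1 and App ranked 41 and 52 by mean level among the 23352 entries, Aplp2 ranked 380, and the lowest member, Psen2, ranked 7807. Aplp1 stood above App in 11 libraries. In WT replicate 3 at 12 months App was the higher one, with an App to Aplp1 ratio of 1.003. At 12 months the FPKM ranges of the pair did not overlap in N40K libraries, 419 to 441 for App beside 443 to 463 for Aplp1, and overlapped in WT libraries, 456 to 470 for App beside 468 to 506 for Aplp1. Psenen stood above Ncstn in every library. Ncstn was above Bace1 in all 6 libraries at 3 months, while at 12 months it was 23.7 to 24.2 FPKM beside 23.4 to 23.6 FPKM for Bace1 in N40K libraries, and the 2 ranges overlapped in WT libraries. Adam10 was below Bace1 in every library, at an FPKM ratio of 0.802 to 0.925. Aplp1 and Ncstn varied most over the 12 libraries, with coefficients of variation of 13.9% and 13.5%, and Adam10 least, with 4.91%.

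**Figure D1:**
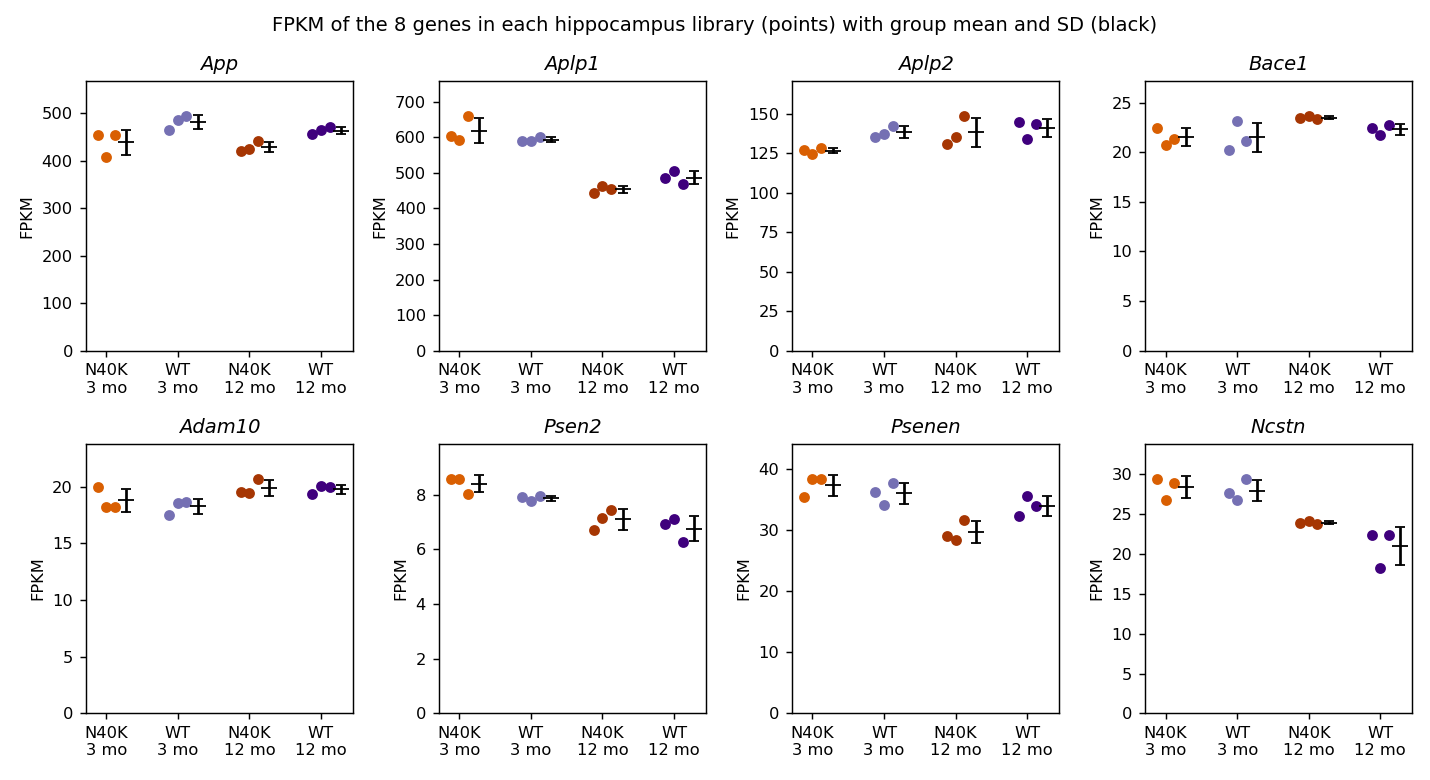
FPKM of the 8 members (vertical axes, each starting at 0) in every hippocampus library, by genotype and age, with the group mean and SD in black (n = 3). Aplp1 and Ncstn stand lower in both 12-month groups than in both 3-month groups, while App differs more between N40K and WT than between ages.

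The labels were first checked against the targeted gene. Snrnp70 had 399, 401 and 377 FPKM in N40K libraries at 3 months, against 179, 161 and 179 FPKM in WT libraries. In the older mice it had 305, 320 and 259 FPKM in N40K libraries, against 138, 95.96 and 133 FPKM in WT libraries. It was higher in every N40K library than in any WT library of the same age, with log2 differences of 1.18 ± 0.12 at 3 months and 1.27 ± 0.12 at 12 months (SE, limma). The extraction protocol in the labels speaks of tumor tissue, whereas the tissue label is hippocampus. Markers of hippocampal neurons were present in all libraries, with Prox1 at 5.96 FPKM or more, C1ql2 at 20.85 or more and Neurod6 at 58.1 or more. Low FPKM values of a library step by what 1 read is worth, which put the depths at about 39.7 to 96.8 M (mega) reads. Read numbers follow from these depths if the gene lengths used were no shorter than the longest coding part, which could not be checked. On that condition the lowest library held at least 383 reads of Psen2 and 378 of Psenen, a counting error of about 5.1%. It held 1276 or more of every other member. Libraries of a group correlated at 0.988 to 0.997. WT replicates 2 and 3 and N40K replicate 3 at 3 months held reads of Xist, a transcript of female cells, and the other 9 libraries held Y-linked transcripts instead. Ttr, made in the choroid plexus, ranged from 25.2 to 5813 FPKM between libraries, without a split by genotype or age. In bulk tissue, fewer cells of a type and less RNA per cell cannot be told apart.

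Differences between groups are given on the log2(FPKM + 1) scale from limma, fitted over the 13945 genes that reached 1 FPKM in 3 or more libraries, with p-values adjusted over all of them and a threshold of 0.05. All 8 members passed this filter on low values. App, the source of amyloid-beta, was lower in N40K than in WT hippocampus over both ages. At 3 months it had 454, 408 and 454 FPKM in N40K libraries, against 465, 485 and 493 FPKM in WT libraries. At 12 months it had 419, 425 and 441 FPKM in N40K libraries, against 456, 464 and 470 FPKM in WT libraries. Every N40K library stood below every WT library of either age, although the margin between the highest N40K and the lowest WT library was narrow, at 453.97 and 455.99 FPKM. Averaged over both ages App fell by 0.12 ± 0.04 on the log2 scale (SE, limma, adjusted p = 0.0263), and groups of 6 against 6 that do not overlap occurred for 6.32% of all genes tested. The difference was -0.13 ± 0.05 at 3 months (adjusted p = 0.118) and -0.11 ± 0.05 at 12 months (adjusted p = 0.141), and neither passed the threshold alone. The 12-month difference was close to 0 with quantile normalization (-0.0022, adjusted p = 0.985) and passed the threshold with the trend in transcript length removed (-0.18, adjusted p = 0.0224). App was the only 1 of the 8 members called in the averaged comparison, against 25% of all genes, 15.5% higher and 9.54% lower. Its call was lost without the 3 libraries that held Xist reads (-0.11, adjusted p = 0.189), a fit in which 1 WT library was left at 3 months and was assumed to vary like the other groups. It was also lost with quantile normalization (-0.07, adjusted p = 0.259), with no filter on low values (adjusted p = 0.0682), and when any 1 of 5 single libraries was left out (adjusted p between 0.0525 and 0.0669). Those were N40K replicate 2 and WT replicates 2 and 3 at 3 months, and N40K replicates 1 and 2 at 12 months. The summed level of 6 general neuron markers moved the same way. It was 1874 to 1965 FPKM in N40K and 1984 to 2244 FPKM in WT libraries at 3 months, and 1946 to 2012 FPKM in N40K and 2133 to 2228 FPKM in WT libraries at 12 months. With each marker weighed equally, as the mean deviation of log2(FPKM + 1) from its average, the genotypes overlapped at 3 months. The values there were -0.125 to -0.04 in N40K and -0.044 to 0.119 in WT libraries. At 12 months they were -0.085 to -0.038 in N40K and 0.053 to 0.126 in WT libraries, without overlap. Of these 6 markers, 3 fell in the averaged comparison (Rbfox3, Snap25 and Camk2a), with a median of -0.16 over the list, and their part in the App difference was not tested. In that comparison 2 of 5 markers of hippocampal neurons fell and 1 rose, 1 of 6 oligodendrocyte markers fell (median -0.16) and 1 of 6 endothelial and mural markers rose (median 0.16). Of the 6 markers each of astrocytes, microglia and choroid plexus limma called 0, with 1, 1 and 0 at an unadjusted p under 0.05.

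Aplp2, the paralog expressed in most tissues, had 127, 125 and 128 FPKM in N40K libraries at 3 months, against 135, 137 and 143 FPKM in WT libraries. The groups did not overlap at that age, and the log2 difference of -0.13 ± 0.05 did not pass the threshold (adjusted p = 0.138). At 12 months it had 131, 135 and 149 FPKM in N40K libraries, against 145, 134 and 144 FPKM in WT libraries, and the groups overlapped. The 12-month difference was -0.03 (95% interval -0.14 to 0.08), and 0.01 with Ttr as a covariate. N40K replicate 3 at 12 months, the highest of all libraries for Aplp2, also had the highest Ttr level of its age, 2977 FPKM. N40K replicate 2 at 3 months, the lowest of all libraries for Aplp2, had the highest Ttr level of its group, 1700 FPKM. The part of choroid plexus tissue in the Aplp2 values was not tested.

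Aplp1, the paralog found mainly in the nervous system, had 605, 591 and 659 FPKM in N40K libraries at 3 months, against 589, 589 and 600.3 FPKM in WT libraries. Aplp1 at 12 months had 443, 463 and 454 FPKM in N40K libraries, against 486, 506 and 468 FPKM in WT libraries. The groups overlapped at 3 months, with a log2 difference of 0.06 ± 0.05 (adjusted p = 0.527), and did not overlap at 12 months, with a difference of -0.10 ± 0.05 (adjusted p = 0.184). The test of the change in the N40K effect between ages gave -0.16 ± 0.07 (limma adjusted p = 0.341). The 12-month difference turned to 0.05 with quantile normalization.

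Within each library, the ratio of App to Aplp1 does not depend on a single scale factor for each library. A trend with transcript length would not cancel, as the longest transcripts have 8167 bases for App and 2472 for Aplp1. With that trend removed the App difference with age was -0.24, and the ratios were not recomputed. At 3 months it was 0.751, 0.690 and 0.689 in N40K libraries, against 0.790, 0.823 and 0.822 in WT libraries, and the groups did not overlap. The ratio at 12 months was 0.946, 0.918 and 0.970 in N40K libraries, against 0.939, 0.916 and 1.003 in WT libraries, and the groups overlapped. In both genotypes all 12-month ratios lay above all 3-month ratios. The ratio of App to Aplp2 was 3.26 to 3.57 in N40K and 3.44 to 3.53 in WT libraries at 3 months, and 2.97 to 3.20 in N40K and 3.15 to 3.45 in WT libraries at 12 months. The summed FPKM of the 3 precursors overlapped between genotypes at 3 months, at 1124 to 1241 in N40K and 1189 to 1236 in WT libraries. At 12 months the sum was 994 to 1044 in N40K and 1081 to 1104 in WT libraries, without overlap. Unlike the ratios, these sums depend on the scaling between libraries. The FPKM of all entries added up to 309358 to 318387 in N40K and 319131 to 332941 in WT libraries at 12 months. With quantile normalization the 12-month differences were -0.0022 for App, 0.049 for Aplp1 and 0.052 for Aplp2.

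**Figure D2:**
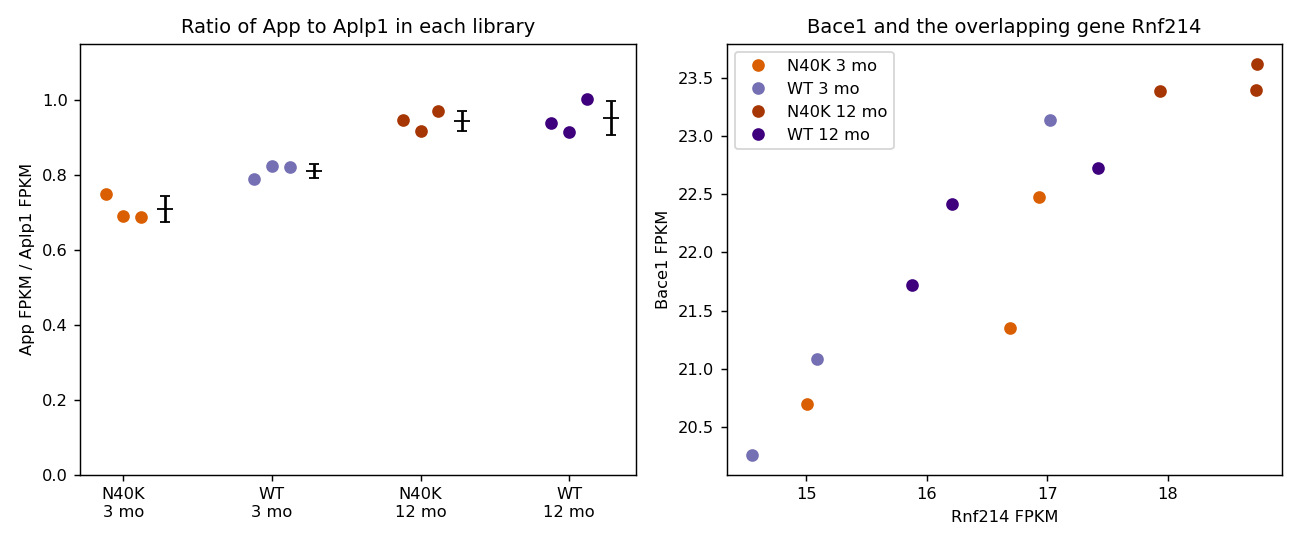
Left, the ratio of App to Aplp1 FPKM in each library (points) with the group mean and SD (black, n = 3 each). At 3 months the N40K points, 0.689 to 0.751, lie below the WT points, 0.790 to 0.823, and at 12 months the genotypes overlap. Right, Bace1 FPKM against FPKM of Rnf214, a gene that shares exon sequence with it on the other strand, in the 12 libraries. The r of the pair was 0.934 on the log2(FPKM + 1) scale.

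Bace1, which makes the first cut toward amyloid-beta, had 22.5, 20.7 and 21.3 FPKM in N40K libraries at 3 months, against 20.3, 23.1 and 21.1 FPKM in WT libraries. Bace1 at 12 months had 23.4, 23.6 and 23.4 FPKM in N40K libraries, against 22.4, 21.7 and 22.7 FPKM in WT libraries. The groups overlapped at 3 months, with a difference of 0.00 (95% interval -0.11 to 0.11). At 12 months they did not overlap, yet the difference of 0.07 ± 0.05 did not pass the threshold (adjusted p = 0.334). In GENCODE M21, exons of Bace1 and of Rnf214, on the opposite strand, share 975 bases. Whether counting used strand was not stated in the sources, so reads of the pair cannot be told apart there. Rnf214 had 18.7, 18.7 and 17.9 FPKM in N40K libraries at 12 months, against 16.2, 15.9 and 17.4 FPKM in WT libraries. Among 9402 genes with a mean of 5 FPKM or more, Rnf214 had the highest correlation with Bace1 over the 12 libraries (r = 0.934, and 0.905 after subtracting group means), a description for genes that can share reads.

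Adam10, the main alpha-secretase of neurons, had 20.0, 18.2 and 18.2 FPKM in N40K libraries at 3 months, against 17.5, 18.6 and 18.7 FPKM in WT libraries. Adam10 at 12 months had 19.5, 19.4 and 20.7 FPKM in N40K libraries, against 19.3, 20.1 and 19.9 FPKM in WT libraries. The groups overlapped at both ages. The difference had a 95% interval of -0.06 to 0.14 at 3 months and -0.10 to 0.11 at 12 months. The within-library ratio of Adam10 to Bace1 averaged 0.874 ± 0.018 in N40K and 0.851 ± 0.044 in WT libraries at 3 months, and 0.847 ± 0.033 in N40K and 0.888 ± 0.032 in WT libraries at 12 months (SD, n = 3 each).

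Psenen encodes the small subunit that completes the gamma-secretase complex and triggers its activation. At 3 months it had 35.4, 38.4 and 38.4 FPKM in N40K libraries, against 36.3, 34.2 and 37.7 FPKM in WT libraries, and the groups overlapped. At 12 months it had 29.1, 28.4 and 31.7 FPKM in N40K libraries, against 32.3, 35.7 and 34.0 FPKM in WT libraries, with every N40K library below every WT library. It fell at 12 months by 0.19 ± 0.06 on the log2 scale (SE, limma, adjusted p = 0.0409), a ratio of mean FPKM of 0.875. Psenen was the only 1 of the 8 members called at 12 months, against 18.9% of all genes tested, 11.2% higher and 7.71% lower. Of the 8 members 5 had groups that did not overlap at 12 months, against 38.8% of all genes. At 3 months 0 of the 8 were called by limma, against 11.4% of all genes, 7.95% higher and 3.49% lower, with App and Aplp2 at an unadjusted p under 0.05, and 3 had groups that did not overlap (App, Aplp2 and Psen2), against 31.9%. The N40K effect at 12 minus that at 3 months was -0.24 ± 0.08 for Psenen (limma adjusted p = 0.225). It did not pass the threshold, as for all 8 members (Aplp1 and Psenen had an unadjusted p under 0.05), against 0.0645% of all genes called, 0.0359% with a positive and 0.0287% with a negative difference. The 12-month call of Psenen lay close to the threshold and held under 11 of 25 alternatives, with adjusted p between 0.0273 and 0.146. Among the settings that ended it were the removal of the trend with transcript length (-0.13, adjusted p = 0.0715), Ttr as a covariate (-0.15, adjusted p = 0.0918), the removal of the 3 libraries with Xist reads (adjusted p = 0.0755) and the loss of any 1 of 7 single libraries. Those were N40K replicates 2 and 3 and WT replicate 1 at 3 months, and N40K replicates 1 and 2 and WT replicates 2 and 3 at 12 months. Exons of Psenen and U2af1l4, on the opposite strand, share 119 bases in GENCODE M21. The 12-month difference of U2af1l4 was 0.00 (adjusted p = 0.999).

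Ncstn, the large subunit that receives substrates, had 29.4, 26.8 and 28.9 FPKM in N40K libraries at 3 months, against 27.7, 26.8 and 29.4 FPKM in WT libraries, and the groups overlapped. Ncstn at 12 months had 24.0, 24.2 and 23.7 FPKM in N40K libraries, against 22.4, 18.2 and 22.4 FPKM in WT libraries. There the groups did not overlap, on the opposite side from Psenen, with a difference of 0.19 ± 0.07 that did not pass the threshold (adjusted p = 0.0919). WT replicate 2 was the low library. Without it the difference was 0.09. The ratio of Psenen to Ncstn within a library was 1.21, 1.17 and 1.34 in N40K libraries at 12 months, against 1.44, 1.96 and 1.51 in WT libraries, without overlap. At 3 months the ratio was 1.20, 1.43 and 1.33 in N40K libraries, against 1.31, 1.28 and 1.28 in WT libraries, and the groups overlapped. The longest transcripts have 708 bases for Psenen and 3016 for Ncstn. A trend with transcript length would therefore not cancel in this ratio, and the ratio was not recomputed without it. Exons of Ncstn and Copa, on the opposite strand, share 195 bases. Copa, a coat protein gene of transport vesicles, fell at 12 months by 0.15 (limma, adjusted p = 0.0291), so it moved away from Ncstn.

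Psen2, a catalytic presenilin, had 8.57, 8.57 and 8.04 FPKM in N40K libraries at 3 months, against 7.91, 7.75 and 7.93 FPKM in WT libraries, with all N40K libraries above all WT libraries. The difference of 0.08 ± 0.05 did not pass the threshold (adjusted p = 0.381). Psen2 at 12 months had 6.69, 7.15 and 7.46 FPKM in N40K libraries, against 6.93, 7.10 and 6.25 FPKM in WT libraries, and the groups overlapped. Over the 8 members the median log2 difference was 0.03 at 3 months and -0.01 at 12 months, beside medians of 0.02 and 0.01 over all genes tested.

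**Figure D3:**
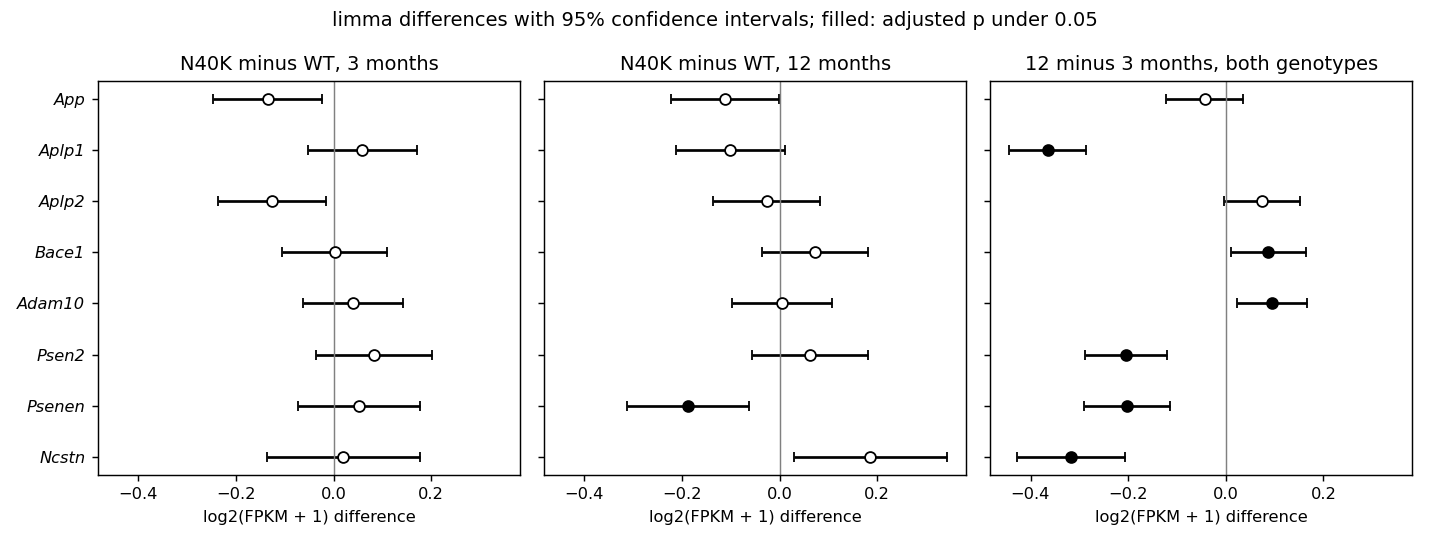
Differences of the 8 members on the log2(FPKM + 1) scale (horizontal axes) with 95% confidence intervals from limma, for N40K minus WT at 3 and at 12 months and for 12 minus 3 months over both genotypes. Filled points passed an adjusted p of 0.05, which was Psenen alone among the genotype differences plotted and 6 of the 8 members between ages.

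Between ages, 4 of the 8 members were lower and 2 higher at 12 than at 3 months over both genotypes, against 60.6% of all genes called, 42.9% lower and 17.7% higher. The members' median was -0.12, beside -0.09 over all genes. The 12-month libraries carry names from another number series than the 3-month ones, so age and library series cannot be told apart. All 3 libraries with Xist reads were 3-month ones. Without them 5 of the 8 members were called between ages, the 4 that fell and Bace1, while Adam10 was not called (0.11, adjusted p = 0.072). With Xist as a covariate 4 were called, and Bace1 (adjusted p = 0.054) and Adam10 (adjusted p = 0.0834) were not. The split of all calls also depended on scaling. Of all genes called, 29.1% were higher at 12 months, but 48.6% with median-ratio scaling, 45.8% with quantile normalization and 49.4% with the trend in transcript length removed.

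Aplp1 fell furthest. It averaged 470.1 ± 22.6 FPKM at 12 months and 605.5 ± 27.0 FPKM at 3 months (SD, n = 6 each), without overlap, a difference of -0.36 ± 0.04 (SE, limma, adjusted p = 8.16e-06). The ratio of the 12-month to the 3-month mean was 0.734 in N40K and 0.821 in WT mice. Ncstn fell by 0.32 ± 0.05 (limma, adjusted p = 0.000247), again without overlap between ages, with ratios of 0.844 in N40K and 0.752 in WT mice. Both stayed called under all 24 alternatives run, though the differences were smaller with other scalings, -0.20 for Aplp1 with quantile normalization and -0.19 for Ncstn with the length trend removed. Psen2 fell by 0.20 ± 0.04 (adjusted p = 0.000728) and did not overlap between ages, and Psenen fell by 0.20 ± 0.04 (adjusted p = 0.00112). With the trend in transcript length removed, the difference was -0.03 for Psen2 (adjusted p = 0.496) and 0.00 for Psenen (adjusted p = 0.924). The summed FPKM of the 3 gamma-secretase members was 59.7 to 62.9 in N40K and 61.0 to 62.6 in WT libraries at 12 months, and 73.4 to 75.3 in N40K and 68.7 to 75.1 in WT libraries at 3 months, so no 12-month library reached any 3-month one. Markers of oligodendrocytes also fell with age, 4 of 6, with a median of -0.33, and 5 of 6 markers of endothelial and mural cells, with a median of -0.36. Over all genes 42.9% were called lower, with a median of -0.09. Of 6 neuron markers 2 rose and 1 fell. In each list of astrocytes, microglia and hippocampal neurons 1 rose and 1 fell, and 0 choroid plexus markers were called. The astrocyte marker that rose was Slc1a2, by 2.17 (limma, adjusted p = 2.28e-08). The part of these cells in the age differences was not tested.

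Adam10 rose by 0.09 ± 0.03 with age (limma, adjusted p = 0.027) and Bace1 by 0.09 ± 0.04 (adjusted p = 0.0493). Both were near the threshold, with calls in 17 of 24 alternatives for Adam10 and 10 of 24 for Bace1, and the ages overlapped for both genes. App and Aplp2 did not pass the threshold between ages, at -0.04 (adjusted p = 0.315) and 0.07 (adjusted p = 0.0899). With quantile normalization App was higher at 12 months instead, by 0.14 (adjusted p = 0.0114), and with the length trend removed it was lower (-0.24, adjusted p = 0.00019). Aplp2 passed the threshold, higher at 12 months, in 5 of 24 alternatives. These were median-ratio scaling (0.17, adjusted p = 0.00148), quantile normalization (0.23, adjusted p = 0.00112), the removal of the length trend (0.17, adjusted p = 0.000884), and the loss of N40K replicate 1 (adjusted p = 0.0476) or WT replicate 2 (adjusted p = 0.0344) at 12 months.

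The rest of the pathway was read from 7 lists with 46 genes, of which 43 were tested. The low genes left out were Bace2, Tspan10 and Nrg1. In N40K hippocampus 3 of the 43 rose and 1 fell at 3 months, where 7.95% of all genes were called higher and 3.49% lower. At 12 months 5 rose and 5 fell, beside 11.2% higher and 7.71% lower over all genes. In the averaged comparison 3 rose and 5 fell, beside 15.5% higher and 9.54% lower. Between ages 8 rose and 20 fell, close to the 17.7% higher and 42.9% lower over all genes. The list for the sorting of App and Bace1, which holds endosomal adaptors and receptors and 2 reticulons, held all 5 that fell on average, out of 11 tested. The list's median was -0.10, beside 0.01 over all genes. The count was 4 to 6 under the other settings run except without the 3 libraries with Xist reads, where it was 3. Neuron markers, as above, moved the same way, and their part was not tested.

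Rtn3, a reticulon that binds Bace1 in the endoplasmic reticulum, had 161, 163 and 168 FPKM in N40K libraries at 3 months, against 189.5, 195 and 181 FPKM in WT libraries. Rtn3 at 12 months had 166, 170 and 169 FPKM in N40K libraries, against 196, 199 and 194 FPKM in WT libraries. No N40K library reached any WT library, and Rtn3 fell by 0.20 at 3 months (limma, adjusted p = 0.00728) and by 0.22 at 12 months (adjusted p = 0.00343). Vps26a, a subunit of the retromer that returns cargo from endosomes, had 14.4, 14.2 and 15.1 FPKM in N40K libraries at 12 months, against 16.8, 18.8 and 17.1 FPKM in WT libraries. It fell by 0.25 at that age (adjusted p = 0.00486). At 3 months it had 15.3, 15.1 and 15.3 FPKM in N40K libraries, against 16.9, 17.9 and 16.7 FPKM in WT libraries, and just missed the threshold (adjusted p = 0.0509). Gga1, an adaptor that carries Bace1, averaged 18.9 ± 0.28 FPKM in N40K and 21.6 ± 1.36 FPKM in WT libraries at 12 months and fell by 0.19 (adjusted p = 0.0328). Bin1, a membrane-bending protein of endocytosis, averaged 108 ± 3.05 FPKM in N40K and 121 ± 7.38 FPKM in WT libraries at that age and fell by 0.17 (adjusted p = 0.0493). At 12 months the Gga1 call held under 17 of 25 alternatives (adjusted p up to 0.0964) and was lost without any 1 of the 12-month libraries except WT replicate 2. The Bin1 call held under 5 of 25 (adjusted p up to 0.37) and was lost without any 1 of the 12-month libraries or without N40K replicate 2 or any WT replicate at 3 months. The calls of Rtn3 and Vps26a at 12 months held under all 25. The 3-month Rtn3 call held under 24 of 25. Picalm, a clathrin adaptor, fell by 0.10 in the averaged comparison (adjusted p = 0.0169), a call that held under 23 of 24. Both of these calls were lost without the 3 libraries with Xist reads, a fit with 1 WT library left at 3 months. Sorl1, a sorting receptor that binds App, went the other way. It had 47.8, 43.0 and 43.7 FPKM in N40K libraries at 12 months, against 34.7, 34.7 and 39.5 FPKM in WT libraries, and rose by 0.30 (adjusted p = 0.023), a call lost without N40K replicate 1, WT replicate 1 or WT replicate 2 at 12 months. Its level also rose with age, by 1.07 (adjusted p = 1.02e-07), the largest change between ages among the 43 genes tested.

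Among the tetraspanins that escort Adam10, 5 were tested. Tspan17 rose at both ages, by 0.42 at 3 months (limma, adjusted p = 0.00776) and by 0.43 at 12 months (adjusted p = 0.00513). It had 28.1, 34.1 and 36.2 FPKM in N40K libraries at 3 months, against 25.2, 24.5 and 22.8 FPKM in WT libraries, and 26.3, 24.4 and 24.2 FPKM in N40K libraries at 12 months, against 19.2, 17.3 and 18.4 FPKM in WT libraries. Every N40K library stood above every WT library of its age. The Tspan17 call held under all 25 alternatives at 12 months and under 24 of 25 at 3 months, where it was lost without the libraries with Xist reads. Tspan15 fell at 12 months by 0.23 (adjusted p = 0.0218), with 5.01, 4.68 and 4.79 FPKM in N40K libraries, against 5.73, 6.11 and 5.64 FPKM in WT libraries. This call held under 22 of 25 alternatives and was lost without N40K replicate 2 or 3 or WT replicate 2 at 12 months. The other 3 were not called in a genotype comparison.

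Of the 7 genes that degrade or bind amyloid-beta, 1 rose at 3 months, 2 at 12 months and 1 on average, beside 7.95%, 11.2% and 15.5% of all genes called higher. Apoe, the main lipid carrier of the brain, rose at 3 months by 0.24 (limma, adjusted p = 0.0308), with 1129 ± 70.1 FPKM in N40K and 958 ± 50.9 FPKM in WT libraries. At 12 months it had 844 ± 33.7 FPKM in N40K and 895 ± 27.2 FPKM in WT libraries and was not called. Ece2 and Ece1, endothelin-converting enzymes that can degrade amyloid-beta, rose at 12 months, by 0.33 (adjusted p = 0.0416) and 0.25 (adjusted p = 0.042). Ece2 averaged 11.5 ± 0.79 FPKM in N40K and 8.96 ± 1.39 FPKM in WT libraries at that age. Ece1 averaged 8.67 ± 0.26 FPKM in N40K and 7.14 ± 0.83 FPKM in WT libraries. The Apoe call held under 17 of 25 alternatives and the 12-month calls of Ece2 and Ece1 under 10 of 25 each. Markers of endothelial and mural cells were higher in N40K at 12 months as well, 3 of 6, with a median of 0.29, and their part was not tested.

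The list drawn up for other substrates of the secretases gave 1 call at each age among 7 tested. Over all genes 11.4% were called at 3 months and 18.9% at 12 months. Whether each listed gene, Itm2c among them, is cut by these secretases was not checked. Itm2c, of the BRI family, rose at 3 months by 0.26 (limma, adjusted p = 0.0373), with 416 ± 8.89 FPKM in N40K and 349 ± 14.9 FPKM in WT libraries. Sez6, a neuronal substrate of Bace1, rose at 12 months by 0.32 (adjusted p = 0.0429), with 51.1 ± 2.25 FPKM in N40K and 40.8 ± 2.95 FPKM in WT libraries. These calls held under 12 of 25 alternatives for Itm2c and 11 of 25 for Sez6. In the 3 remaining lists limma called no gene in a genotype comparison. In each, the gene with the smallest averaged p was Aph1a of the other gamma-secretase subunits (0.10, adjusted p = 0.0875), Adam9 of the other sheddases (-0.09, adjusted p = 0.169) and Apbb2 of the cytoplasmic adaptors (-0.11, adjusted p = 0.0595), and 1, 0 and 1 genes had an unadjusted p under 0.05 on average. Aph1a fell with age by 0.39 (adjusted p = 7.7e-06), to 13.1 ± 0.72 FPKM in N40K and 11.9 ± 0.57 FPKM in WT libraries at 12 months, against 17.1 ± 0.67 FPKM in N40K and 16.3 ± 0.77 FPKM in WT libraries at 3 months.

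**Figure D4:**
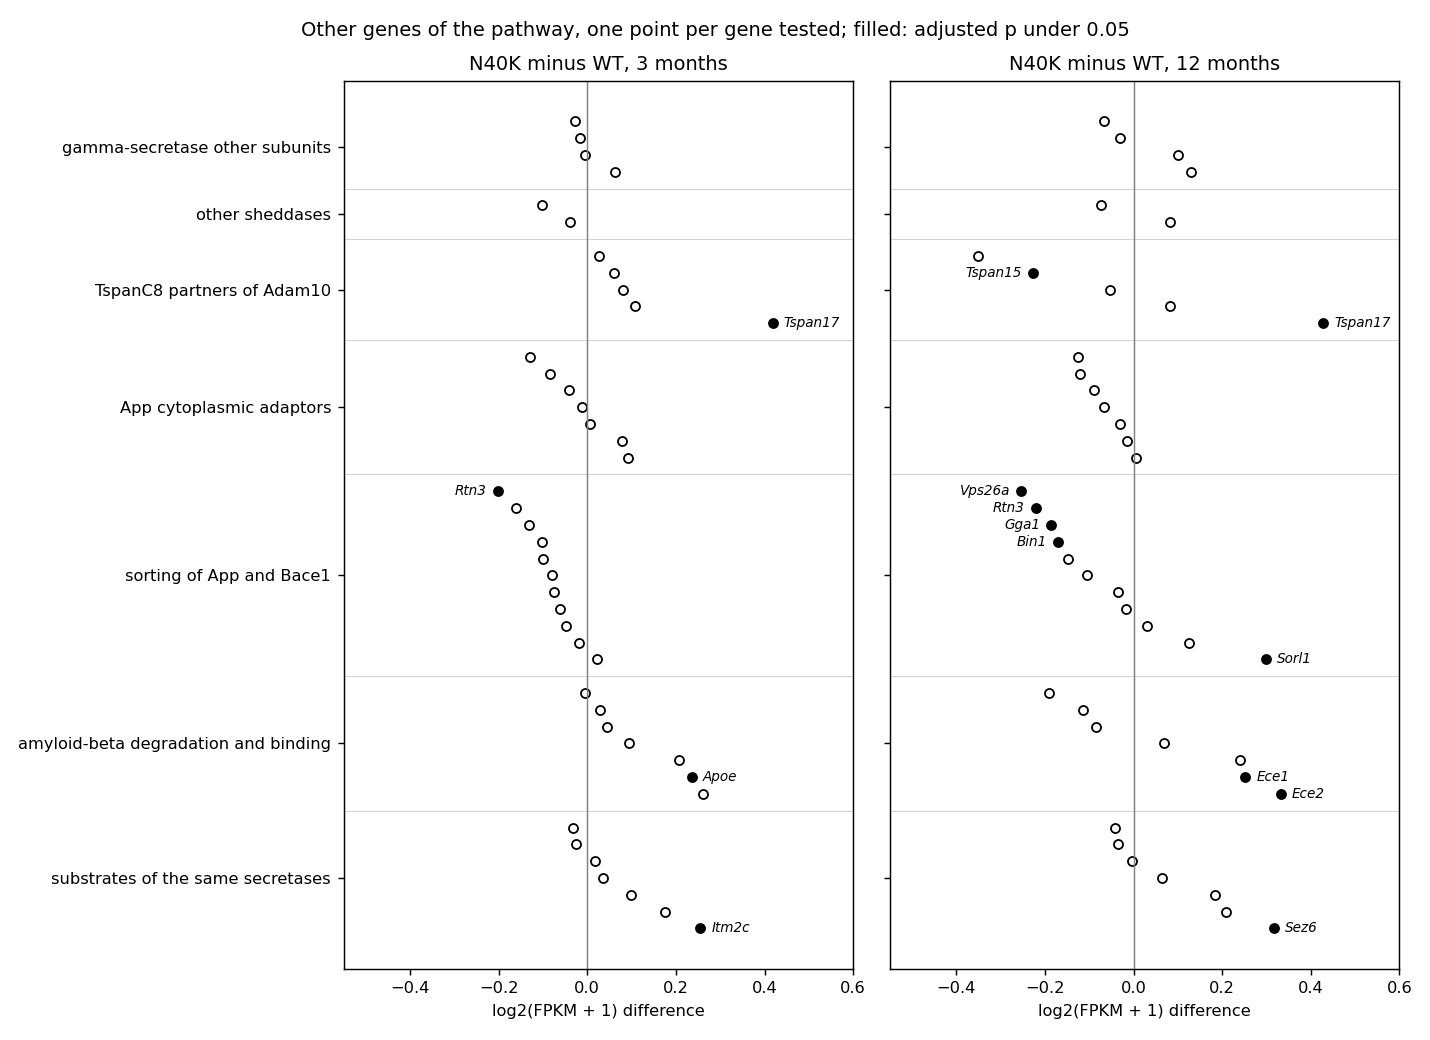
Differences of the 43 tested genes in the 7 lists on the log2(FPKM + 1) scale (horizontal axes), N40K minus WT, at 3 and at 12 months, 1 point per gene and ordered within each list, with genes at an adjusted p under 0.05 filled and named. In the sorting list at 12 months 4 genes lie on the lower side and Sorl1 on the higher side, and Tspan17 is called at both ages.

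Likeness over the 12 libraries was measured as Pearson r of log2(FPKM + 1) among the same 9402 genes. These libraries share the separation by age, so the values describe the libraries and carry no p. The closest genes were Skiv2l2 to App (r = 0.911), Snora64 to Aplp1 (0.987), Zfp207 to Aplp2 (0.878), Mpp5 to Adam10 (0.955), Arl2 to Psen2 (0.969), Hexim1 to Psenen (0.957) and Cic to Ncstn (0.979). After subtracting group means these fell to between 0.674 for Zfp207 and 0.928 for Cic. Next were Psmd1 and Vps53 for App, 1810043G02Rik and Taldo1 for Aplp1, Nup205 and Ttll5 for Aplp2, Gm11149 and Smarcal1 for Bace1, Gad2 and Fip1l1 for Adam10, Myl6 and Atrip for Psen2, Fam89b and Ormdl3 for Psenen, and Prpf40b and Preb for Ncstn, with r between 0.873 and 0.987. Among the members themselves the highest r was 0.842, between Aplp1 and Psenen, and it was 0.28 within groups. Bace1 and Psenen had the lowest, -0.836, and -0.635 within groups.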

How the data were processed

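The authors deposited FPKM values per gene in 1 table; per the labels, libraries were poly-A selected (TruSeq) and read as 100 bp pairs on a HiSeq. CASAVA, STAR, BWA and the mm9 build are named in the submitters' processing notes. Annotation, counter and strand setting are not given in the sources used here. Entries at 1 FPKM in 3 or more libraries (13945) were tested as log2(FPKM + 1) with limma 3.58.1 (R 4.3.3): 4 group means over 12 libraries, eBayes with trend, two-sided, Benjamini-Hochberg over all genes. FPKM are relative, and the pseudocount of 1 understates changes of low genes. Depth was recovered from whole-read steps, 52.7% to 77.6% whole within 0.02 of a read, so no count test was run. Python 3.11.15 (pandas 2.3.3, numpy 2.4.6, matplotlib 3.10.9) prepared tables and plots. The fit was tested on simulated data with independent errors and planted differences larger than those called for App and Psenen between genotypes. That test therefore does not bear on differences of their size. GENCODE M21 gave exon overlaps, neighbours and lengths. Named were all members, every listed gene called in a genotype comparison (otherwise the smallest averaged p), Snrnp70 and the 3 genes most alike. Members, lists and tests were chosen with earlier results of these data known. Marker lists of neurons, hippocampal neurons, astrocytes, oligodendrocytes, microglia, endothelial cells and choroid plexus were counted. Alternatives were pseudocounts of 0.1 and 0.5, filters, scalings, covariates, a replicate block and left-out libraries. The Ttr covariate, the removal of libraries with Xist reads and the recounts of the sorting list and of the listed genes' calls were added after seeing the data.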

Additional observations from a re-analysis of the deposited data

How the results depend on the processing

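FPKM without depth per gene, 3 libraries a group and shared ages limit these results. Over the results of the 8 members and their alternatives, 888 values kept direction and side of the threshold, 46 lost a call, 8 gained one and 34 reversed. Aplp1 and Ncstn stayed lower at 12 months under all 24 alternatives. Scaling and covariates turned small values, and the cause was not tested. With median-ratio scaling Bace1 (-0.026) and Ncstn (-0.0086) at 3 months, Psen2 in the change of the N40K effect (0.012) and App with age (0.0501) reversed. With quantile normalization Bace1 (-0.011) and Ncstn (-0.0052) at 3 months, Aplp1 (0.049) and Aplp2 (0.052) at 12 months, Aplp1 on average (0.068), Adam10 in the change of effect (0.0086) and App with age (0.14) reversed. With the length trend removed (13049 genes tested) Psenen (-0.0095) and Ncstn (-0.013) at 3 months, Adam10 at 12 months (-0.014), and App (-0.054) and Psen2 (0.0496) in the change of effect reversed. With Ttr as a covariate Bace1 at 3 months (-0.0038) and Aplp2 at 12 months (0.0080) reversed, and with Xist as a covariate App in the change of effect (-0.00065). Without the 3 libraries with Xist reads App (-3.2e-05) and Bace1 (-0.015) in the change of effect reversed.

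The number of members called at 12 months was 0 with no filter, quantile normalization, Xist or Ttr as a covariate, each age fitted alone and without the libraries with Xist reads. The number called on average was 0 with no filter, quantile normalization and without those libraries. Without them 137 genes in all were called at 3 months and 1565 on average, with 1 WT library left at 3 months that was assumed to vary like the other groups, and each age fitted alone gave 1499 at 12 months. For the change of effect, 9 genes were called in the main comparison, 4 with the length trend removed, and 0 with Xist as a covariate, the replicate block or without the libraries with Xist reads.

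Leaving out 1 library at a time gave 797 to 2226 genes called at 3 months, 1356 to 2607 at 12 months and 0 to 162 for the change of effect. Members called ranged from 0 to 1 at 12 months and 0 to 2 on average. At 3 months Bace1 ranged from -0.038 to 0.054, Adam10 from -0.0028 to 0.061 and Ncstn from -0.0096 to 0.059. At 12 months Aplp2 ranged from -0.0785 to 0.0103 and Adam10 from -0.023 to 0.0202. In the change of effect App ranged from -0.029 to 0.048, Adam10 from -0.062 to 0.0080 and Psen2 from -0.069 to 0.016. After subtracting group means, same-numbered libraries of the 2 genotypes at the same age correlated between -0.456 and 0.197. By the same measure 3 of 12 libraries correlated best with their own number. These values show no pairing by number, though 3 libraries a group are too few to settle it. With the replicate number as a block, Psenen at 12 months had an adjusted p of 0.0398 and App on average 0.0352 (limma). Among all genes called at 3 months, 69.5% were higher, but 54.6% with median-ratio scaling, 54.4% with quantile normalization and 54.6% with the length trend removed. On average 61.9% were higher, but 49.8% with quantile normalization and 51.5% with the length trend removed. The sorting list had 4 genes lower at 12 months and 2 to 4 under other settings, with 2 when each age was fitted alone, with Ttr as a covariate, without the libraries with Xist reads and without each of the 12-month libraries other than WT replicate 2.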

Other observations

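Genes next to or overlapping the 8 members on the chromosome, which entered no list above, numbered 11 among the genes tested. In N40K hippocampus 3 of them rose and 1 fell in the averaged comparison, against 25% of all genes called. Cep164, a centriole gene beside Bace1, averaged 6.24 ± 0.28 FPKM in N40K and 4.82 ± 0.08 FPKM in WT libraries at 3 months, and 4.92 ± 0.17 FPKM in N40K and 2.97 ± 0.63 FPKM in WT libraries at 12 months. Nfkbid, an inhibitor of NF-kappa-B beside Aplp1, averaged 2.98 ± 0.23 FPKM in N40K and 2.34 ± 0.12 FPKM in WT libraries at 3 months, and 2.19 ± 0.25 FPKM in N40K and 1.59 ± 0.16 FPKM in WT libraries at 12 months. Cyyr1, beside App, averaged 1.05 ± 0.01 FPKM in N40K and 0.765 ± 0.069 FPKM in WT libraries at 12 months (SD, n = 3 each). It passed the filter at 1 FPKM only through the 3 N40K libraries at 12 months, with all other libraries at 0.8755 FPKM or less. Its place among the genes tested, and so among those that rose, depended on the group where it was high. The gene that fell was Copa, described with Ncstn. These genes were chosen by position, and Cep164, Nfkbid and Cyyr1 were named after their values were seen.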
